A study of Mus musculus with 12 samples.

Results

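The genes described are 9 transcription factors that mark classes of spinal interneurons, Pax2, Lhx1, Lhx5, En1, Gata3, Lmx1b, Tlx3, Prrxl1 and Pou4f1. They were matched by mouse symbol to the Ensembl identifiers of the deposited counts, and all 9 were found among the 49548 genes counted. Spinal cord RNA was sequenced from 12 untreated mice at 30 days of age, 1 library per mouse. MFN2 (n = 8) denotes hemizygous MitoCharc1 mice, which the labels call CMT2A and whose allele is Tg(Eno2-MFN2*R94Q)L51Ugfm on a B6;D2 background, and WT (n = 4) denotes mice labelled C57BL/6, which the study's methods describe as littermates. The transgene carries human MFN2 with the R94Q change behind the rat Eno2 promoter, which acts mainly in neurons, and both mouse Mfn2 copies are kept. The methods give the tissue as the lumbar cord. Total counts ranged from 19359454 to 26738930 in MFN2 libraries and from 19453238 to 23564568 in WT libraries.

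Spinal interneurons arise in ordered dorsal and ventral progenitor domains, and each class is set up by a combination of homeodomain, LIM and paired-box factors. Pax2, Lhx1 and Lhx5 act together to keep the GABAergic and glycinergic programme, En1 marks the ventral V1 class that includes Renshaw cells, and Gata3 marks the inhibitory V2b class. Tlx3 and Lmx1b drive the glutamatergic programme of dorsal horn neurons, and Prrxl1 and Pou4f1 are shared by dorsal horn and somatosensory neurons. Many of these genes are most active in the embryo and persist at lower levels in subsets of mature neurons.

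Libraries are named by their numbers. The WT libraries are numbered 44 to 47, and the MFN2 libraries fall in 2 runs, 41 to 43 and 72 to 76. In the second run, which holds MFN2 alone, genotype and library number cannot be told apart. Library 43 (MFN2) stood apart from the other 11. Its 12 forebrain markers summed to 4817 CPM (each count divided by the library size, after TMM scaling), against 240.2 to 310.0 CPM in the other libraries, with Camk2a the most abundant gene of that list. The 8 motor neuron markers summed to 38.8 CPM in library 43 and to 170.3 to 421.1 CPM elsewhere, and the 9 caudal Hox genes to 26.1 CPM and to 149.4 to 201.0 CPM. Results that rest on library 43 are therefore given with and without it.

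In library 43 the level of 8 of the 9 interneuron factors was below that of every other library, and Pou4f1 was the exception. Tlx3 in that library was at 6.35% of the median of the other 11 libraries, on 3 counts. Prrxl1 was at 12.9%, Pax2 at 16.8%, Gata3 at 17.3%, En1 at 18.6%, Lmx1b at 20.3%, Lhx5 at 21.7% and Lhx1 at 33.5% of the same median. Pou4f1 was at 89.2%, with 4 of the other libraries below it. In bulk tissue, fewer cells of a class and less RNA per cell cannot be told apart. The part of the forebrain genes in these low values was not tested beyond comparisons without library 43 and a fit with a forebrain score as covariate.

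**Figure D1:**
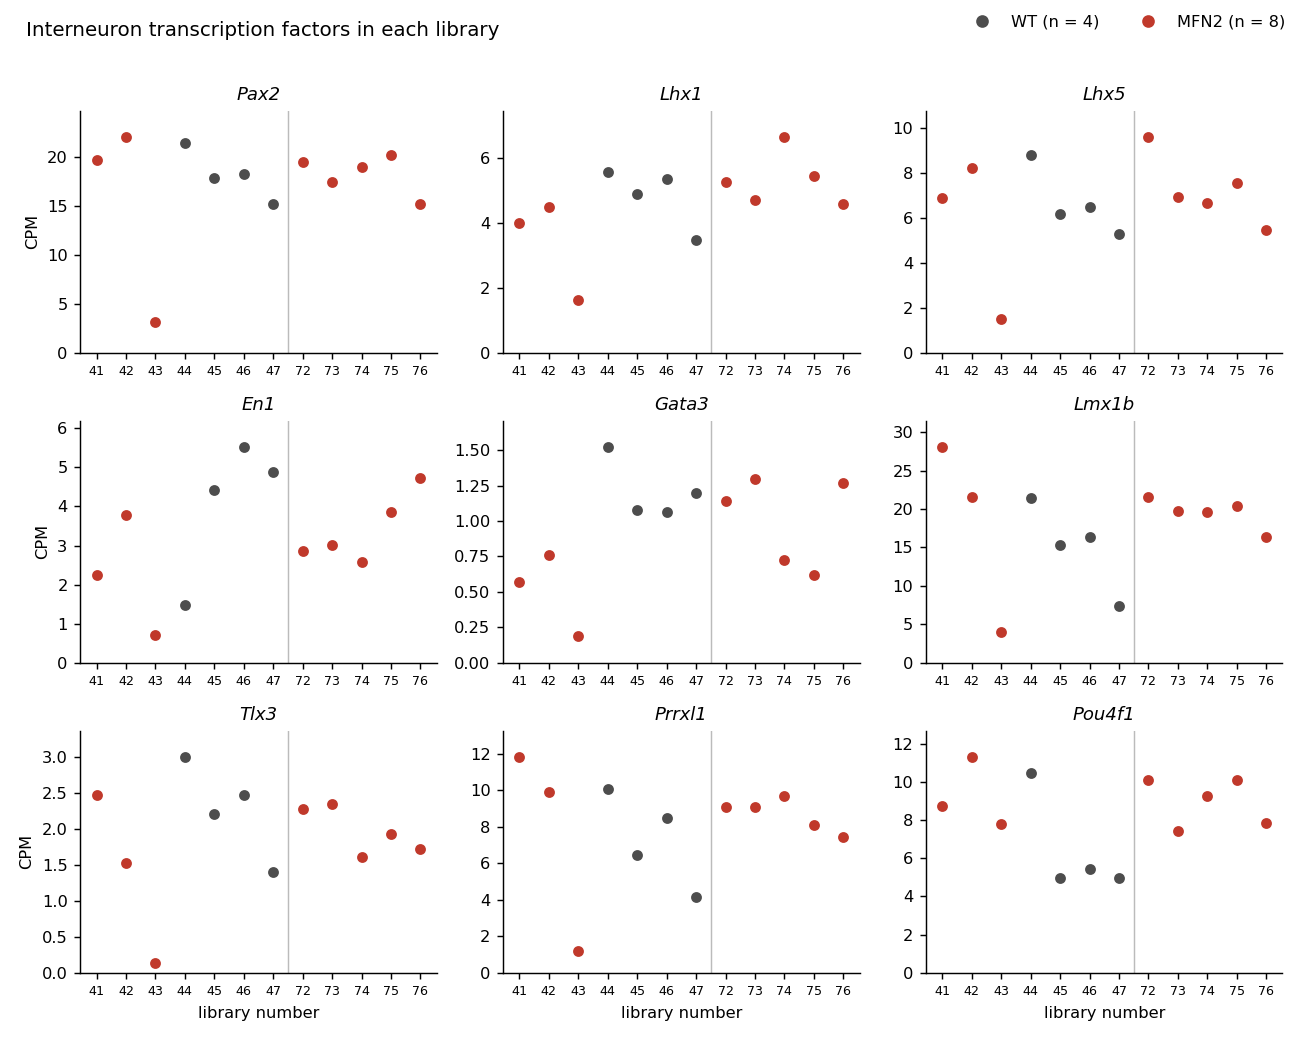
Level of each of the 9 interneuron factors in CPM (y axis, linear, from 0) in every library (x axis, library number), with WT in grey and MFN2 in red and a grey line between the 2 runs of numbers. Library 43 is the lowest point in 8 panels, while in the Pou4f1 panel the lowest points are WT libraries 45, 46 and 47, at 4.94 to 5.44 CPM.

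Among the factors of inhibitory classes, Pax2 (ENSMUSG00000004231, chr19:44756045-44837871 on GRCm38, plus strand) was the most abundant. WT libraries 44, 45, 46 and 47 held Pax2 at 21.4, 17.9, 18.3 and 15.1 CPM. MFN2 libraries ranged from 3.18 CPM in library 43 through a median of 19.2 to 22.1 CPM in library 42. Outside library 43 the genotypes overlapped over almost their whole range, and library 76, at 15.2 CPM, lay beside WT 47. The level was 18.2 ± 2.57 CPM (SD, n = 4) in WT and 19.0 ± 2.17 CPM (SD, n = 7) in MFN2 without library 43. Across the 11 libraries Pax2 had the smallest spread of the 9 genes, with a coefficient of variation of 11.9%, where counting error alone gives 4.83%.

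Lhx1 and Lhx5 encode LIM-homeodomain proteins that maintain Pax2 in developing dorsal horn neurons. Lhx1 (ENSMUSG00000018698, chr11:84518284-84525535, minus strand) was at 5.57, 4.89, 5.35 and 3.49 CPM in WT libraries 44 to 47 in order. In MFN2 libraries it ranged from 1.64 through a median of 4.64 to 6.66 CPM, lowest in library 43 and highest in library 74. Lhx5 (ENSMUSG00000029595, chr5:120431699-120441223, plus strand) was at 8.80, 6.16, 6.499 and 5.26 CPM in the same WT libraries. Its MFN2 values ranged from 1.496 through a median of 6.90 to 9.60 CPM, lowest in library 43 and highest in library 72. For both genes WT 44 was the highest and WT 47 the lowest of the WT libraries, and the genotypes overlapped. An annotated antisense gene, Gm27199, shares exon positions with Lhx5 and held 2 to 20 counts per library, against 32 to 219 for Lhx5. Whether reads were counted by strand is not given in the sources used here, so that part of this signal cannot be assigned. The antisense partner of Lhx1, Lhx1os, lies outside its exons and held 19 to 122 counts.

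En1 and Gata3 mark ventral inhibitory classes and had a lower mean CPM over the 12 libraries than Pax2, Lhx1 and Lhx5. Per kilobase of exons, however, En1 stood above Lhx1, at 1.27 and 1.15 CPM per kilobase. En1 (ENSMUSG00000058665, chr1:120602418-120607992, plus strand), the homeodomain factor of V1 neurons, was at 1.48, 4.42, 5.53 and 4.89 CPM in WT libraries 44 to 47. MFN2 libraries ranged from 0.701 in library 43 through a median of 2.93 to 4.73 CPM in library 76. WT 44 thus lay below every MFN2 library except 43, while WT 46 and WT 47 lay above all 8 MFN2 libraries. Without library 43, En1 had the widest spread of the 9 genes across the 11 libraries, with a coefficient of variation of 35.1% against 11.2% from counting.

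Gata3 (ENSMUSG00000015619, chr2:9857078-9890034, minus strand), the zinc-finger factor of V2b neurons, was at 1.52, 1.08, 1.06 and 1.20 CPM in WT libraries 44 to 47. Its MFN2 values ranged from 0.187 in library 43 through a median of 0.742 to 1.30 CPM in library 73. These levels rest on 23 to 35 counts per WT library and 4 to 26 per MFN2 library, and the coefficient of variation among WT libraries, 17.6%, was below the 19.6% that counting error gives. T cells also use Gata3, and the 6 T cell markers summed to 10.8 CPM in WT 44 and to 0.570 to 2.34 CPM in the other 11 libraries. Trac, the most abundant of them over all libraries, was not highest there, at 1.045 CPM in WT 44, 1.19 in WT 46 and 1.61 in WT 47. The other 5 markers were highest in WT 44, among them Cd3e, at 1.35 CPM there and at 0 in WT 45, 46 and 47. The part of these cells in the Gata3 level of WT 44 was not tested. Annotated genes inside the Gata3 locus, Gm13256, 4930412O13Rik and 9230102O04Rik, held at most 4 counts.

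Among the factors of excitatory classes, Lmx1b was the most abundant. Lmx1b (ENSMUSG00000038765, chr2:33560965-33640511, minus strand), a LIM-homeodomain factor needed by dorsal horn excitatory neurons, was at 21.5, 15.4, 16.4 and 7.34 CPM in WT libraries 44 to 47. MFN2 libraries ranged from 4.02 in library 43 through a median of 20.1 to 28.1 CPM in library 41. WT 47 held less Lmx1b than every MFN2 library except 43. The divergent antisense gene C130021I20Rik, whose exons do not overlap those of Lmx1b, had its lowest and highest counts, 48 and 465, in the same libraries, 43 and 41. In WT 47 it held 90 counts. Serotonergic neurons of the hindbrain also use Lmx1b, and their 3 markers summed to 0.190 to 1.05 CPM per library, with Tph2 the most abundant.

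Prrxl1 (ENSMUSG00000041730, chr14:32599407-32649246, plus strand), a paired-like homeodomain factor needed for sensory input to reach the dorsal horn, followed a similar course. WT libraries 44 to 47 were at 10.1, 6.44, 8.49 and 4.16 CPM, and MFN2 libraries ranged from 1.17 through a median of 9.09 to 11.8 CPM. As for Lmx1b, library 41 was the highest and library 43 the lowest, with WT 47 next to lowest. Tlx3 (ENSMUSG00000040610, chr11:33200752-33203589, minus strand), the homeobox selector of the glutamatergic over the GABAergic fate, was at 3.005, 2.21, 2.48 and 1.41 CPM in WT libraries 44 to 47. In MFN2 libraries Tlx3 ranged from 0.140 through a median of 1.83 to 2.475 CPM. WT 44 held the most Tlx3 of all 12 libraries, and WT 47 the least after library 43.

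The sequences before a RefSeq start of Lmx1b, Prrxl1 and Tlx3 are shown because Lmx1b and Prrxl1 had the highest Pearson's r of any pair of the 9 genes across the 11 libraries without 43, and Tlx3 marks the same dorsal horn neurons. Each run is the 250 bases before the annotated start, from RefSeq on GRCm38.p6, read 5′ to 3′ on the gene's strand. The Prrxl1 window lies inside the GENCODE locus given above, which begins at base 32599407, so it is upstream of the RefSeq start alone. Capitals mark every match to CCAAT on either strand, where the reverse match reads ATTGG.
Lmx1b, chr2:33641099-33641348, minus strand: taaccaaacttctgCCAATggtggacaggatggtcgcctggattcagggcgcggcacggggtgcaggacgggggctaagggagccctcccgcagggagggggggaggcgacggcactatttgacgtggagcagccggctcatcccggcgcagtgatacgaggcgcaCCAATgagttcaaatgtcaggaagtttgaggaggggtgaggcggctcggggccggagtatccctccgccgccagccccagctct
Prrxl1, chr14:32599677-32599926, plus strand: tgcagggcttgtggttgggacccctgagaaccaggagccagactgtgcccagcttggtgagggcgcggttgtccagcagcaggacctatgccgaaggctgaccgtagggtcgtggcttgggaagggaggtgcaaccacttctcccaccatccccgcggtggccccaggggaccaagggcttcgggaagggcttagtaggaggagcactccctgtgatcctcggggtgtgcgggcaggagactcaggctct
Tlx3, chr11:33203589-33203838, minus strand: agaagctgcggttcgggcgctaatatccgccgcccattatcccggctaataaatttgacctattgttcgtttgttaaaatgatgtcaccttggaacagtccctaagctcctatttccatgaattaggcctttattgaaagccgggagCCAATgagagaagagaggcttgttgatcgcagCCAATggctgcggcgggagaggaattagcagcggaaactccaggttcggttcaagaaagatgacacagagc
The Lmx1b and Tlx3 windows hold 2 matches each and the Prrxl1 window holds 0. Of 32851 RefSeq promoter windows of this length, 33.8% hold at least 1 match. TAATTA, a core bound by many homeodomain proteins, has 0 matches in the windows of the 8 genes with an entry, and 4.84% of all windows hold it. GC content was 65.2% for Lmx1b, 64.8% for Prrxl1 and 48.8% for Tlx3, against a median of 52.4% over all windows. A match is a description of letters and was not tested as a binding site.

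Pou4f1 (ENSMUSG00000048349, chr14:104461676-104467999, minus strand), a POU-domain factor of dorsal spinal and primary sensory neurons, was the 1 gene of the 9 that was not lowest in library 43. WT 44 was at 10.45 CPM, while WT 45, 46 and 47 were at 4.98, 5.44 and 4.94 CPM. MFN2 libraries ranged from 7.45 in library 73 through a median of 9.01 to 11.3 CPM in library 42. All 8 MFN2 libraries were above WT 45, 46 and 47, and only MFN2 42 was above WT 44, so that the genotypes overlapped through WT 44 alone. The 12 dorsal root ganglion markers, among them Pou4f2, summed to 10.3 CPM in WT 44 and to 5.29 to 8.30 CPM in the other libraries, with Runx1 the most abundant. Markers of nociceptors were near 0, with Scn10a at 0 to 8 counts, Trpv1 at 0 to 5 and Mrgprd at 0 to 3 per library.

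The libraries that were high for Pou4f1 were those high for 4 of the 9 caudal Hox genes listed, Hoxd10, Hoxc10, Hoxc11 and Hoxd11, which were picked with their levels in view. The 5 libraries with the most Pou4f1 (42, WT 44, 72, 75 and 74) were also the 5 with the most of each of these 4 genes. Of their own top 5 libraries, Hoxa10 shared 4 with Pou4f1, Hoxa9 and Hoxc9 shared 1, and Hoxc8 and Hoxd9 shared 0. Hoxc8 was at 10.15 CPM in WT 44, its lowest level outside library 43, and at 45.1 to 69.1 CPM in the other WT libraries. Caudal Hox genes pattern the thoracic, lumbar and sacral cord. Hoxd11 stood at 16.4, 14.8, 15.7, 12.7 and 12.9 CPM in libraries 42, 44, 72, 75 and 74, at 5.80 CPM in library 73 and at 0 to 2.03 CPM in the other 6. Hoxc11 was at 7.34 to 10.6 CPM in the 5, at 2.35 CPM in library 73 and at no more than 0.795 CPM elsewhere. As Hoxd11 fell into separate groups of libraries, no correlation with it was computed.

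WT 47 stood apart in another way, and was next to lowest, after library 43, for Pax2, Lhx1, Lhx5, Lmx1b, Tlx3 and Prrxl1. Slc5a7, the choline transporter of cholinergic neurons, was at 129.6 CPM there and at 13.2 to 84.5 CPM in the other 11 libraries, and Chat at 35.2 and 5.19 to 30.2 CPM. The 8 motor neuron markers summed to 421.1 CPM in WT 47. In the same library the 4 excitatory-class factors summed to 17.85 CPM, against 29.0, 32.8 and 45.02 CPM in the other WT libraries, and the 5 inhibitory-class factors to 30.0 CPM, against 34.4 to 38.8 CPM. The part of tissue sampling in these differences was not tested.

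**Figure D2:**
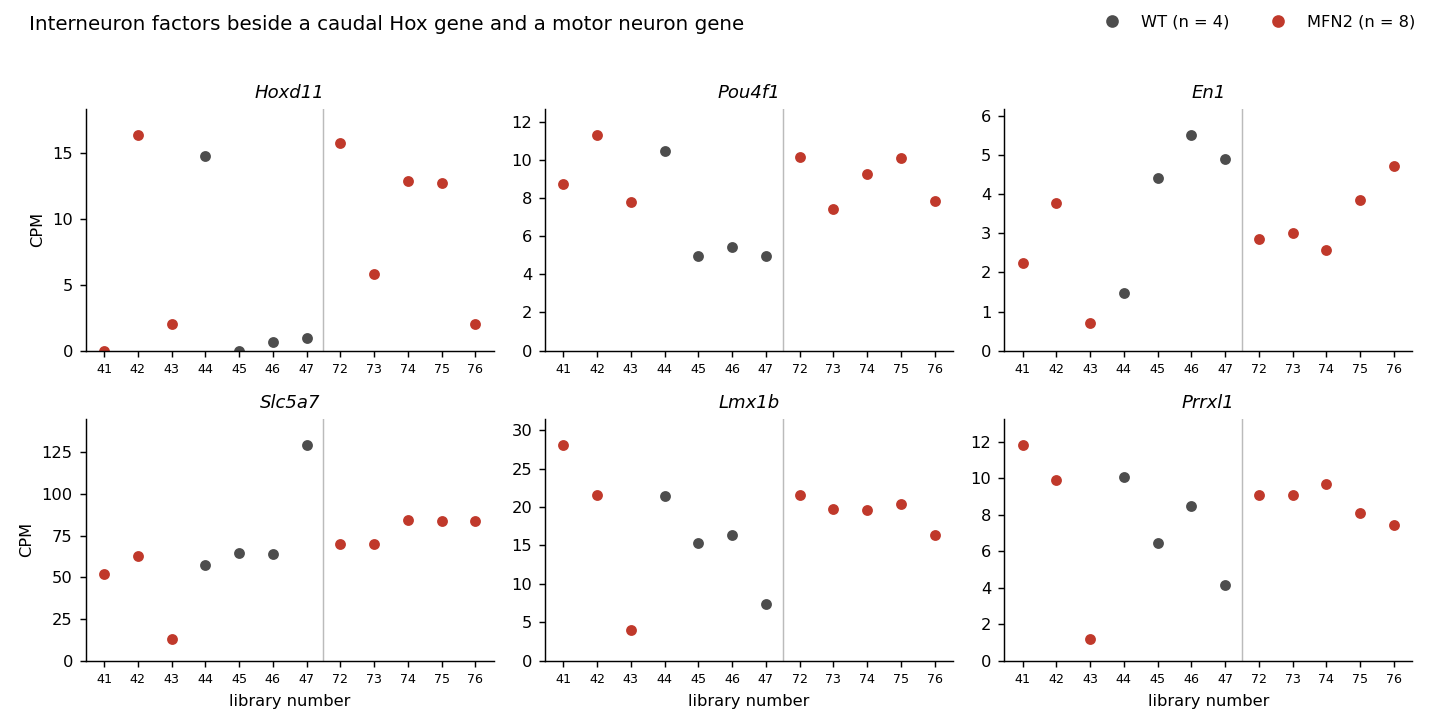
CPM (y axes, linear, from 0) of Hoxd11, Pou4f1, En1, Slc5a7, Lmx1b and Prrxl1 by library number (x axes), WT in grey and MFN2 in red. Libraries 42, 44, 72, 74 and 75 are high for Hoxd11 and for Pou4f1, and library 47 is the highest for Slc5a7 and next to lowest for Lmx1b and Prrxl1.

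Per kilobase of annotated exons, Lmx1b and Pax2 were the most abundant of the 9. This scaling compares genes only if reads cover whole transcripts, and coverage along transcripts was not examined. Over the 12 libraries Lmx1b was at 3.62 ± 1.34 CPM per kilobase (SD, n = 12) and Pax2 at 3.22 ± 0.918. Lmx1b was above Pax2 in 9 of 12 libraries, and their spreads overlapped. Lhx5 followed at 2.46 ± 0.768, below Pax2 in 12 of 12 libraries, then Prrxl1 at 1.91 ± 0.695 and Pou4f1 at 1.76 ± 0.470. En1, Tlx3 and Lhx1 lay close together at 1.27 ± 0.555, 1.26 ± 0.478 and 1.15 ± 0.308. Gata3 was the least abundant, at 0.240 ± 0.0960, and below Lhx1 in 12 of 12 libraries. Without library 43, the mean ± SD of every neighbouring pair in this order overlapped, with the exception of Lhx1 and Gata3. In WT libraries alone Pax2 stood before Lmx1b, and Pou4f1 stood in the seventh place rather than the fifth.

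**Figure D3:**
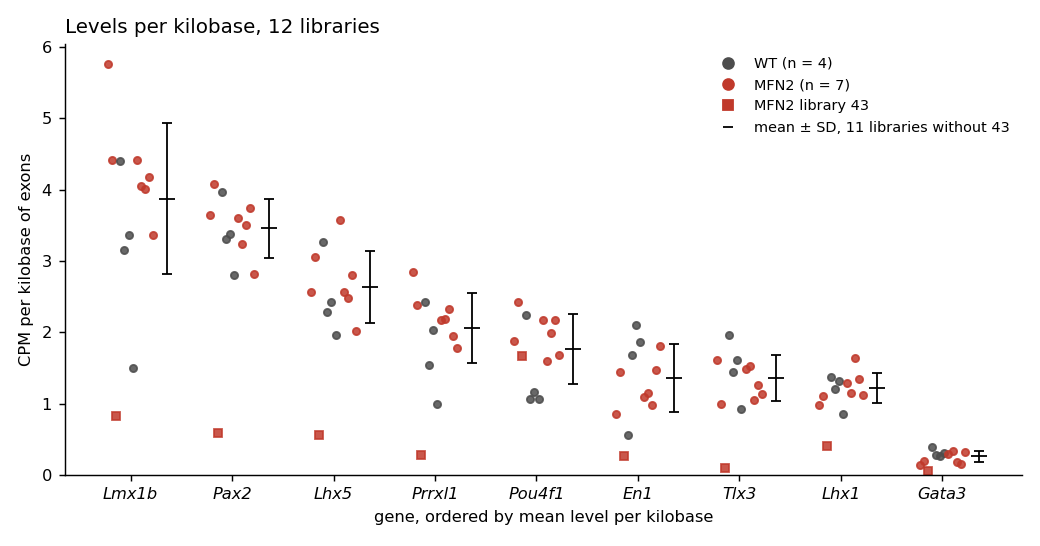
Level of each gene per kilobase of exons (y axis, CPM per kilobase, linear, from 0), with 1 point per library, WT in grey, MFN2 in red, library 43 as squares, and the mean ± SD of the 11 libraries without 43 as black bars. The genes run from Lmx1b at 3.62 to Gata3 at 0.240 CPM per kilobase over the 12 libraries.

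The comparison of genotypes asked whether the R94Q transgene was accompanied by a different level of these factors at 30 days. All 9 genes passed the filter of more than 1 CPM in at least 3 libraries. Of them, 0 were called (FDR of at most 0.05, edgeR quasi-likelihood test) between 8 MFN2 and 4 WT libraries, where 0% of the 15942 genes tested were called. At an unadjusted p under 0.05 there was 1 of the 9, Pou4f1, where 15% of all genes tested were under it. DESeq2, which called 1.25% of all genes, and limma-voom both called 0 of the 9. The likelihood-ratio test of edgeR, added after the values were seen, also called 0 of the 9, and 0.0878% of all genes. The levels of 0 of the 9 genes were without overlap between the genotypes, against 2.07% of all genes tested. Log2 fold changes of the inhibitory-class factors were below 0 for all 5 under TMM scaling, with Lhx5 at 0.04 when library size alone was used, from -0.57 for Gata3 (SE 0.37, FDR = 0.452) through -0.46 for En1 (SE 0.40) to -0.02 for Lhx5 (SE 0.33). Without library 43 the values of Pax2, Lhx1 and Lhx5 were 0.07, 0.06 and 0.13, above 0. Among the excitatory-class factors Pou4f1 was at 0.49 (SE 0.20, FDR = 0.301), Lmx1b at 0.32 (SE 0.38), Prrxl1 at 0.18 (SE 0.41) and Tlx3 at -0.37 (SE 0.43). The median over the 9 genes was -0.07 and over all genes 0.0038.

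Within the first run of numbers, MFN2 libraries 41 to 43 were compared with the same 4 WT libraries. Of the 9 genes 0 were called by edgeR, where 0.00658% of the 15200 genes tested were called, and DESeq2 called 0 of the 9 and 0.0329% of all genes. The likelihood-ratio test called 0 of the 9 and the same 0.00658% of all genes. At an unadjusted p under 0.05 by edgeR were 7.12% of all genes and 1 of the 9, Gata3. Gata3 was 0.571, 0.762 and 0.187 CPM in libraries 41, 42 and 43, below all 4 WT libraries, a log2 fold change of -1.22 (SE 0.43, unadjusted p = 0.0229, edgeR FDR = 0.622). It was the 1 gene of the 9 without overlap, in a comparison in which 8.97% of all genes had none. Without library 43 the log2 fold change of Gata3 was -0.85 (edgeR FDR = 0.863), and in the second run, 72 to 76 against WT, -0.29 (FDR = 0.486), with overlap. Pou4f1 in libraries 41 to 43 against WT was at 0.54 (SE 0.30), with 8.76, 11.3 and 7.81 CPM in the 3 MFN2 libraries.

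MFN2 libraries 72 to 76 against the same WT libraries gave 3746 genes past the FDR, 23.8% of the 15743 tested, and 0 of the 9 interneuron factors. DESeq2 called 27% and the likelihood-ratio test 24.7% of all genes, and both called 0 of the 9. The edgeR share over all genes was 15% without WT 45 and 28.9% without WT 44. With the mean of Hoxd10, Hoxc11 and Hoxd11 as a covariate it was 9.01%. At an unadjusted p under 0.05 by edgeR were 37.8% of all genes and 0 of the 9. Groups were without overlap for 19.7% of all genes and for 0 of the 9. The lowest FDR among the 9 was 0.146, for Pou4f1 (log2 fold change 0.47, SE 0.22), with 10.1, 7.45, 9.27, 10.1 and 7.83 CPM in libraries 72 to 76. Without WT 44 the log2 fold change of Pou4f1 was 0.81 and its edgeR FDR 0.00128, and without a filter on low counts its FDR was 0.00730. Log2 fold changes of the other 8 lay between -0.29 for Gata3 and 0.36 for Lmx1b, and standard errors between 0.11 for Pax2 and 0.32 for En1. Since both comparisons use the same 4 WT libraries, their values are not independent.

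Inside the MFN2 genotype, libraries 72 to 76 were set against 41 to 43. Again 0 of the 9 genes were called by edgeR or DESeq2, where edgeR called 2.19% and DESeq2 11.5% of the 15633 genes tested. The likelihood-ratio test called 6.4% of them and 0 of the 9. Without library 41, edgeR called 0.45% of all genes tested and 0 of the 9. At an unadjusted p under 0.05 by edgeR were 24.6% of all genes and 0 of the 9. Lhx1 was without overlap, at 5.26, 4.70, 6.66, 5.45 and 4.58 CPM against 3.998, 4.497 and 1.64 CPM, a log2 fold change of 0.64 (SE 0.29, FDR = 0.220), where 18.4% of all genes were without overlap. Without library 43 it was 0.32 (FDR = 0.251). The values of 8 of the 9 genes were above 0, and without library 43 those of Pax2, Lhx5, Lmx1b, Tlx3 and Prrxl1 were below 0, from -0.35 for Lmx1b to -0.03 for Tlx3.

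**Figure D4:**
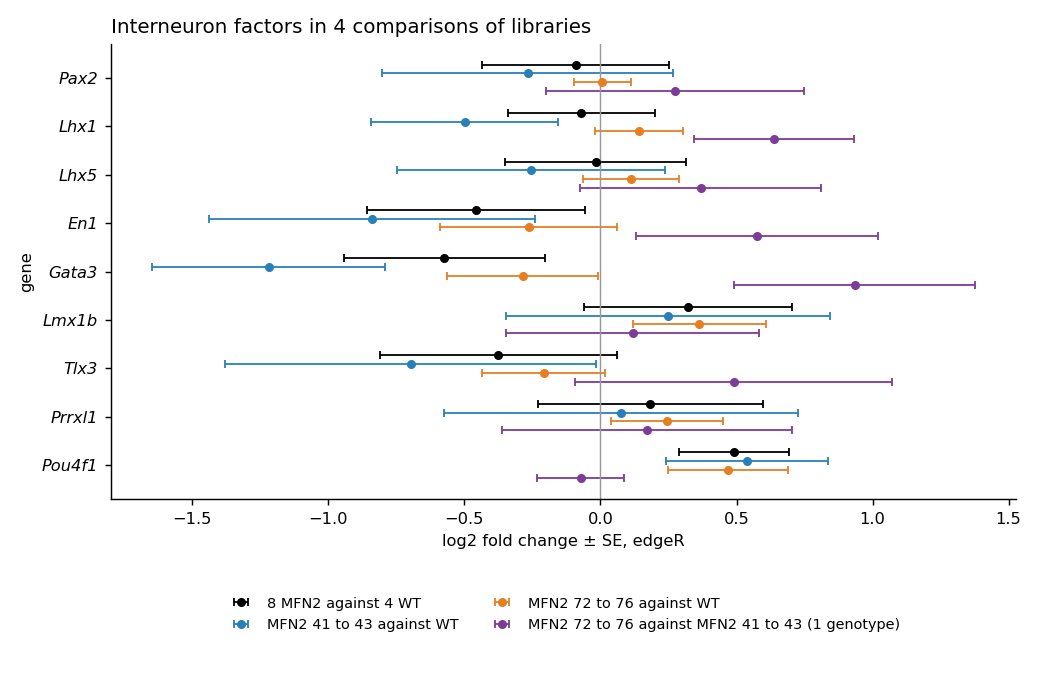
Log2 fold change ± SE from edgeR (x axis) of each gene (y axis) in 4 comparisons, marked by colour, with 8 MFN2 against 4 WT in black. No point passed the FDR threshold, and the values run from -1.22 for Gata3 in libraries 41 to 43 to 0.93 for Gata3 in libraries 72 to 76 against 41 to 43.

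Across the 12 libraries the levels of most pairs of these genes ran together, and much of this rested on library 43. Pearson's r of log2 CPM (prior count 2) had a median of 0.71 over the 36 pairs, and 0.38 over the 11 libraries without 43. These are descriptions, and the libraries mix both genotypes and both runs of numbers. Lmx1b and Prrxl1 had the highest r of the 36 pairs over 11 libraries, 0.96, where Spearman's rho was 0.80, and r = 0.97 over 12. Lhx5 and Pax2 followed at 0.85 over 11 libraries, with rho also 0.80, and at 0.97 over 12. By Spearman's rho the order of pairs was another, with Pax2 and Pou4f1 the highest over 11 libraries at 0.873, then Lhx5 and Pou4f1 at 0.855 and Lhx5 and Lmx1b at 0.827. Over 12 libraries r between Pax2 and Pou4f1 was 0.18 and rho 0.81. The 6 pairs of excitatory-class factors had r between 0.08 and 0.96 over 11 libraries, the lowest for Tlx3 with Pou4f1. En1 ran against most of the others, with r from -0.64 with Prrxl1 to 0.01 with Gata3 over 11 libraries, and 7 of its 8 values below 0. Over 12 libraries 7 of those 8 were above 0, with Pou4f1 the exception at -0.40. Gata3, on few counts, also had values below 0 over 11 libraries, from -0.41 with Lmx1b to -0.06 with Lhx1. Only its values with Tlx3 (0.26) and En1 were above 0. The 10 pairs of inhibitory-class factors had a median r of 0.71 over 12 libraries and -0.07 over 11.

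**Figure D5:**
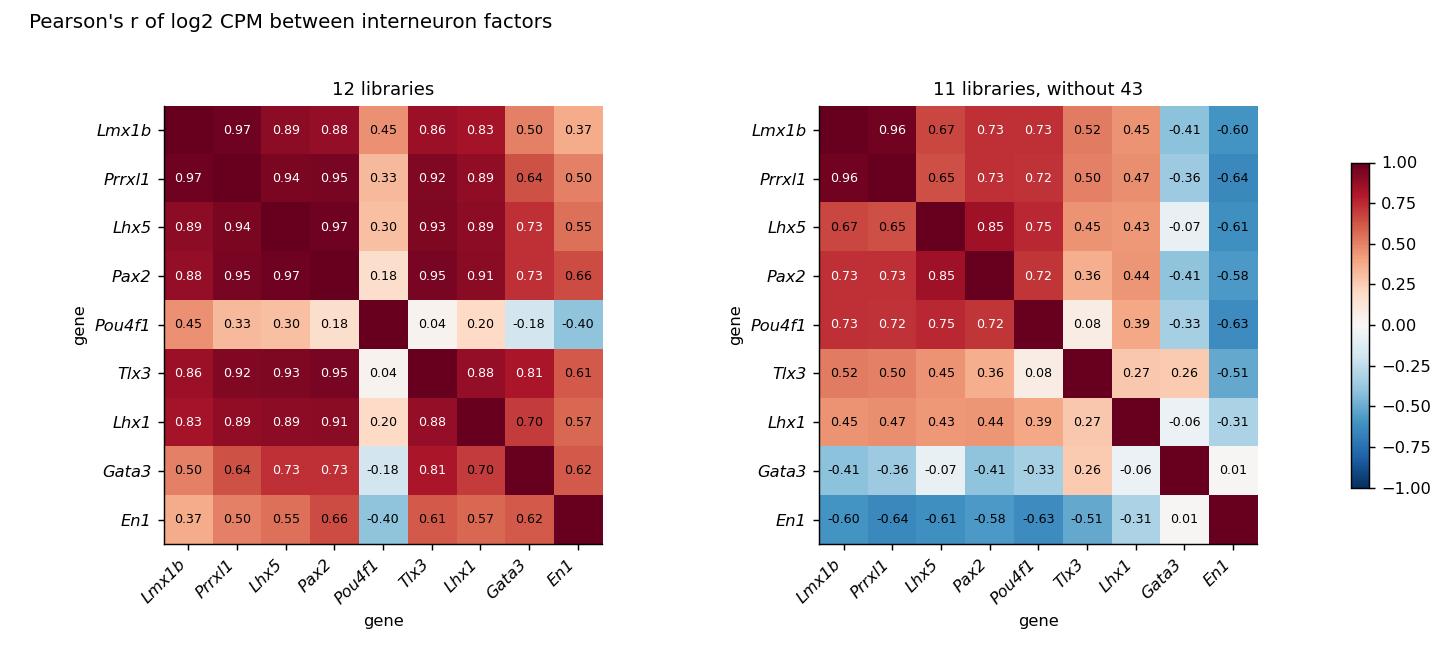
Pearson's r of log2 CPM for each pair of genes (x and y axes), over 12 libraries on the left and over the 11 without 43 on the right, coloured from -1 in blue to 1 in red. The En1 row is mostly red on the left and mostly blue on the right, and Lmx1b with Prrxl1 is 0.97 and 0.96.

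Over all genes tested, the 2 most like each factor across 12 libraries had r from 0.91 to 0.99, and from 0.63 to 0.97 over the 11 without 43. Lmx1b was most like Mab21l1 (r = 0.99, and 0.97 without 43) and Ebf3, and Prrxl1 most like Ebf3 and Tshz2. Pax2 was nearest to Sparcl1 and Zfp521, and Lhx5 to Camta1 and Pax2. The genes nearest to Lhx1 were Blvra and Trim67, those nearest to Tlx3 were Slc22a4 and Glud1, and those nearest to En1 were Anxa6 and Glyat. Gata3 ran closest to Gm45338 and Nfkb1. For Pou4f1 they were Cfap70 and Nudt11, at 0.94 and 0.91 over 12 libraries and 0.94 and 0.92 over 11. Chosen without library 43, 2 of the 18 choices were the same, Gm45338 for Gata3 and Cfap70 for Pou4f1.

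Other interneuron factors were taken from lists written for the same classes. Of 39 other dorsal factors, 26 passed the filter and 0 were called in 8 MFN2 against 4 WT, 21 with a log2 fold change above 0 and a median of 0.14. The most abundant were Nfib, Zfhx3 and Rora, at 137.6, 121.5 and 110.3 CPM on average. In libraries 72 to 76 against WT, Onecut2 (0.57, SE 0.08, FDR = 0.000828) and Zic1 (0.45, SE 0.14, FDR = 0.0412) were higher by edgeR. In all, 3 of 26 were called there, against the 23.8% of all genes. In libraries 41 to 43 against WT, Onecut2 was at -0.38 (SE 0.19) and Zic1 at 0.92 (SE 0.24), neither called. Onecut2 was at 14.3 to 15.3 CPM in libraries 72 to 76 and at 5.47 to 9.26 CPM in MFN2 libraries 41 to 43. WT libraries held it at 9.12 to 11.5 CPM. Of 25 other ventral factors 16 were tested and 0 called in 8 MFN2 against 4 WT. In libraries 72 to 76 against WT, Sox21 (-0.54, SE 0.12, FDR = 0.00843) and Nkx2-2 (-0.65, SE 0.15, FDR = 0.0105) were lower by edgeR, 2 of 16 against the same 23.8%. In libraries 41 to 43 against WT, Sox21 was at 0.16 (SE 0.21) and Nkx2-2 at -0.46 (SE 0.30), neither called. The calls in libraries 72 to 76 cannot be told apart from the library numbers. Foxp1, Foxp4 and Dbx2 were the most abundant of them, and Dbx1 had 0 counts in all 12 libraries.

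Transmitter and peptide genes of the same neurons were also examined. Of 11 dorsal horn neuropeptides tested, all 11 had a log2 fold change above 0 under TMM scaling in 8 MFN2 against 4 WT, with a median of 0.54 against 0.0038 over all genes, and 0 were called by edgeR. The 12 listed peptides, of which Penk was the most abundant, summed to 146.4 CPM in WT 47 and to 252.3 to 379.2 CPM in the other libraries outside 43. In library 43 they summed to 471.7 CPM, with Cck at 160.8 CPM there and at 14.8 to 21.8 CPM in the other 11 libraries. In libraries 72 to 76 against WT, Npy (1.08, SE 0.20, FDR = 0.00331), Nts (0.52, SE 0.14, FDR = 0.0194) and Tac2 (0.67, SE 0.22, FDR = 0.0493) rose by edgeR, 3 of 11 against the 23.8% of all genes. Npy is a peptide of inhibitory dorsal horn neurons, at 6.905 ± 1.18 CPM (SD, n = 5) against 3.26 ± 1.04 CPM (SD, n = 4). Gad1, the larger GABA-synthesising enzyme, rose (0.39, SE 0.11, FDR = 0.0246) and Slc32a1, the vesicular inhibitory transmitter carrier, fell (-0.18, SE 0.05, FDR = 0.0264) in the same comparison, 2 of 4 inhibitory transmission genes. Slc17a6, the vesicular glutamate carrier of dorsal horn neurons, averaged 186.5 CPM over 12 libraries and was not called. In the second run these calls cannot be told apart from the library numbers, and 4 of 5 astrocyte markers and 4 of 5 microglia markers fell there too.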

How the data were processed

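RNA of 12 spinal cords was sequenced as paired-end reads on an Illumina instrument. The study's methods call this poly(A) mRNA sequencing and name a stranded total RNA kit, while its main text calls it total RNA sequencing. Per the methods and the submitters' processing notes, the authors trimmed adapters, and used STAR with GRCm38 (GRCm38.p6). What they deposited is the raw count of each Ensembl gene in a library. Neither the program that counted nor its use of strand is given in the sources used here. Symbols, loci and exon lengths came from GENCODE M21, with 49289 of 49548 identifiers matched.

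Genes above 1 CPM in at least 3 of the libraries fitted entered a quasi-likelihood F-test (edgeR 4.0.16, R 4.3.3, legacy form, robust, TMM factors). P-values were adjusted by Benjamini and Hochberg's method over every gene tested and called at an FDR of 0.05. The study fitted generalized linear models in an earlier edgeR version at this FDR, and which of its tests was run is not given in the sources used here. The likelihood-ratio test of edgeR was therefore added as an alternative after the values were seen. Log2 CPM used a prior count of 2. DESeq2 1.42.0, limma 3.58.1, other filters and scalings, covariates and each library left out in turn were alternatives. The edgeR step was tested on simulated counts. Libraries are of separate mice, so p-values measure the spread between mice. Genes near 1 CPM rest on few counts.

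The 9 genes and the gene lists were chosen with earlier results of these data known. Named are the 9 genes, annotated genes within 5 kb of them, the genes of other lists past the FDR (at most 6) or among the 3 most abundant, and the 2 genes most like each of the 9. Hoxc8, Hoxa9, Hoxc9, Hoxd9, Hoxa10, Hoxc10, Hoxd10, Hoxc11, Hoxd11, Chat, Cd3e, Scn10a, Trpv1, Mrgprd and Dbx1 were named after their values were seen. Of the other dorsal factors past the FDR, 1 is not reported here. Promoter windows were found in the RefSeq table for 8 of the 9 genes, with Lhx5 missing.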

Additional observations from a re-analysis of the deposited data

Results flagged for a closer look

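In 4 of 18 groups of libraries (9 genes in each genotype), the highest or lowest library lay far from the others relative to the range of the group, where chance would give about 0.9. In 3 of these the library was 43, among 8 MFN2 libraries. There Pax2 was at 3.18 CPM with the next library at 15.2, Tlx3 at 0.140 CPM with the next at 1.52, and Prrxl1 at 1.17 CPM with the next at 7.42. The fourth was Pou4f1 in WT 44, at 10.45 CPM, with the next WT library at 5.44 CPM. Hoxd11 was at 14.8 CPM in WT 44 and at no more than 0.989 CPM in the other WT libraries, while Hoxc8 was at 10.15 CPM in WT 44 and at 45.1 to 69.1 CPM in the others. Groups of 4 and 8 were examined, and the 18 are not independent, since library 43 enters 9 of them.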

How the results depend on the processing

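The count of called interneuron factors was 0 under 64 of 66 alternatives. It was 1 (Pou4f1, higher) in libraries 72 to 76 against WT without a filter on low counts, where 11% of all genes were called, and from 0 to 1 over the fits leaving out 1 library, with 1 without WT replicate 44, where 28.9% were called. Alternatives moved the sign of small log2 fold changes, none of them past the FDR threshold, and the cause was not tested. In 8 MFN2 against 4 WT, Lhx5 was at 0.035 with library size only. Pax2, Lhx1 and Lhx5 were at 0.0073, 0.14 and 0.11 with libraries 72 to 76 alone, at 0.19, 0.14 and 0.26 with the forebrain score as a covariate, and at 0.15, 0.080 and 0.19 with the pan-neuronal score. Leaving out 1 library gave -0.17 to 0.066 for Pax2, -0.20 to 0.056 for Lhx1, -0.12 to 0.14 for Lhx5 and -0.0083 to 0.38 for Prrxl1. In libraries 41 to 43 against WT it gave -0.22 to 0.71 for Lmx1b, -0.37 to 0.58 for Prrxl1, -0.66 to 0.21 for Pax2 and -0.65 to 0.19 for Lhx5. In libraries 72 to 76 against WT it gave -0.068 to 0.097 for Pax2 and -0.0084 to 0.27 for Lhx5. With the mean of Hoxd10, Hoxc11 and Hoxd11 as a covariate, Pax2, Lhx5 and En1 were at -0.15, -0.16 and 0.41 there. That covariate was added after the data were seen, from genes picked because their high libraries were those of Pou4f1, so it bears on no value of Pou4f1. In libraries 72 to 76 against 41 to 43, leaving out 1 library gave -0.17 to 0.087 for Pou4f1, -0.20 to 0.66 for Pax2, -0.071 to 0.76 for Lhx5, -0.35 to 0.60 for Lmx1b, -0.025 to 1.19 for Tlx3 and -0.33 to 0.62 for Prrxl1. The sign of Lmx1b, Tlx3, En1, Gata3 and Pou4f1 in 8 MFN2 against 4 WT did not change under the alternatives run. Their sizes did, and with 1 library left out Lmx1b ranged from 0.094 to 0.54 and Pou4f1 from 0.39 to 0.83. En1 ranged from -0.74 to -0.28, Tlx3 from -0.54 to -0.20 and Gata3 from -0.69 to -0.43 in the same fits. Asking for 1 CPM in all 12 libraries left 6 of the 9 genes. By the longest transcript in place of the union of exons, 5 of the 9 genes kept their place in the order per kilobase, with Pax2 before Lmx1b and Prrxl1 before Lhx5. Over all genes, DESeq2 called 200 and the likelihood-ratio test 14 in 8 MFN2 against 4 WT, where the quasi-likelihood test called 0, and in libraries 72 to 76 against 41 to 43 they called 1795 and 1000, where it called 342. The median r among pairs was 0.73 with a prior count of 0.5. No paired analysis was possible because every library carries a number of its own and the genotypes share none.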
